A study of Sus scrofa with 3 samples.

Results

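The genes described here are the oxidative phosphorylation genes of pig liver, the set whose products build the mitochondrial respiratory chain and ATP synthase. They were taken by gene symbol: every Ensembl gene ID with a symbol that begins with NDUF, SDHA to SDHD, UQCR, COX and a digit, ATP5, or ND and a digit, together with CYTB, ATP6 and ATP8. The rule found 69 gene IDs among the 25322 in the deposited tables, of which 56 lie in the nuclear genome and 13 in mitochondrial DNA. Of the 56 nuclear members, 41 encode subunits of the 5 complexes and 15 encode assembly factors, an inhibitor or paralogs. A list of 75 nuclear subunits written from general knowledge matched 41 symbols, and the other subunits are not analysed here.

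RNA was taken from whole liver of male pigs at postnatal day 90. The groups were Enshi black, a Chinese local breed, Chinese wild boar, and Large White, a European commercial breed, with 1 library each. No allele or treatment is given for any group. Whether a library holds 1 animal or a pool is not stated here. Breed, animal and library cannot be told apart and no difference below has a replicate check. The libraries held 20654571 gene counts in Enshi black, 20215871 in Chinese wild boar and 19982627 in Large White. Of 7 hepatocyte markers found, 6 were expressed in every library, and APOA1 had at most 2 counts.

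In the inner mitochondrial membrane, complexes I and II pass electrons from NADH and succinate to ubiquinone. Complex III hands them to cytochrome c and complex IV to oxygen, while complexes I, III and IV pump protons that drive ATP synthase (complex V). Most subunits are made from nuclear genes in the cytosol and imported, but a few central ones are encoded in mitochondrial DNA, so each complex except complex II is built from products of both genomes. Mitochondrial genes are read as long transcripts of each strand that are then cut into single messages. In hepatocytes the chain oxidises the products of fatty acid and amino acid breakdown and supplies ATP for glucose and urea synthesis.

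Levels are given as CPM, counts per 1000000 counts of a library's gene total after TMM adjustment. A fold is the ratio of 2 such levels, with its 95% exact binomial interval in parentheses. That interval reflects counting error and no variation between animals. A gene is said to pass, or to be higher or lower by the rule, if even the bound closer to 1 lies 2-fold or more away. Levels of different genes are not compared, because counts grow with transcript length. In all, 67 members had at least 1 CPM in at least 1 library. The other 2 were NDUFA4L2, a paralog of the complex IV subunit NDUFA4, with 3 counts in Enshi black, 4 in Chinese wild boar and 4 in Large White, and COX10, an enzyme of haem A synthesis, with 0, 11 and 4 counts in the same libraries. No direction is drawn for either.

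Messages from both genomes were most abundant in Chinese wild boar, and their sums stood in nearly the same proportion in every library. The 13 mitochondrially encoded genes summed to 34128 CPM in Enshi black, 40458 in Chinese wild boar and 31402 in Large White. The 41 nuclear subunit genes summed to 4287 CPM in Enshi black, 5245 in Chinese wild boar and 3895 in Large White. The mitochondrial sum was 1.09-fold (1.08 to 1.09) higher in Enshi black and 1.29-fold (1.28 to 1.29) higher in Chinese wild boar than in Large White. The nuclear sum was 1.10-fold (1.09 to 1.11) and 1.35-fold (1.33 to 1.36) higher in the same comparisons. Neither sum reached the 2-fold rule.

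Counts of the 13 mitochondrial genes divided by counts of all 56 nuclear members gave a ratio of 7.36 (7.31 to 7.41) in Enshi black, 7.14 (7.10 to 7.19) in Chinese wild boar and 7.47 (7.42 to 7.52) in Large White. This ratio does not depend on how the libraries are scaled to each other. Relative to Large White it was 0.985 (0.976 to 0.995) in Enshi black and 0.956 (0.947 to 0.965) in Chinese wild boar, and Enshi black over Chinese wild boar gave 1.03 (1.02 to 1.04). The differences lie outside counting error but are small, and variation between animals was not measured. The order of Enshi black and Chinese wild boar depends on the genes summed. Without ATP8, ATP6, ND4L and ND4, the ratio was 5.29 in Enshi black, 5.46 in Chinese wild boar and 5.48 in Large White. ND5 and ND6, which also overlap, stayed in the sum. Large White was highest in both settings, but in the second Chinese wild boar over Large White was 0.997 (0.987 to 1.006), within counting error. Taken as a ratio of medians, Large White was instead lowest, at 28.5 against 30.6 in Enshi black and 31.8 in Chinese wild boar.

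**Figure D1:**
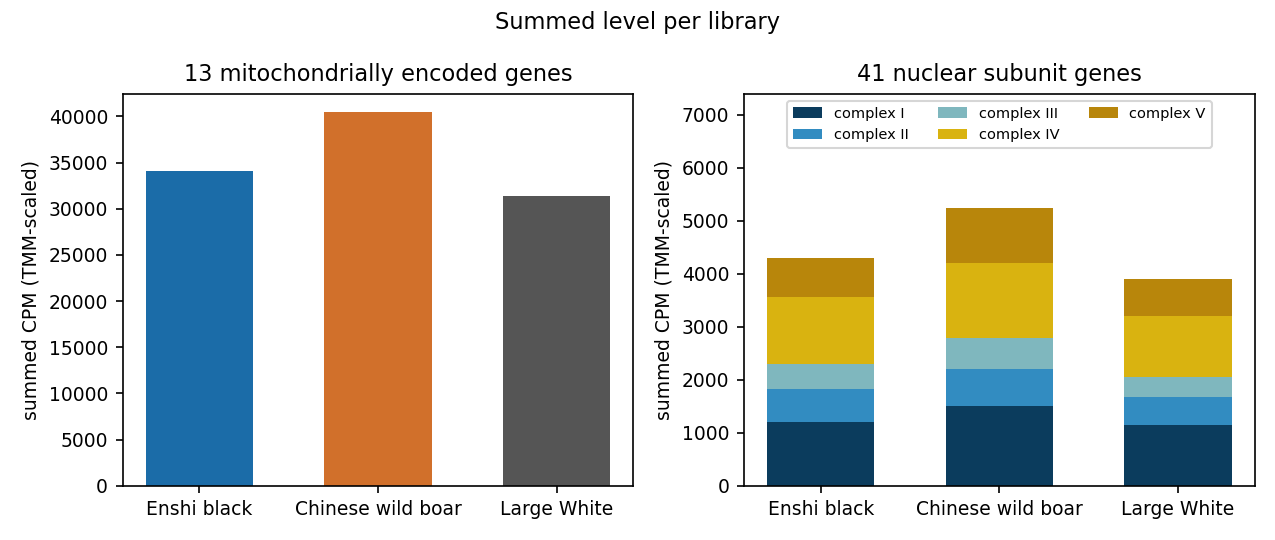
Summed CPM per library of the 13 mitochondrially encoded genes (left) and of the 41 nuclear subunit genes stacked by complex (right), on separate linear axes from 0, with 1 library per breed and no error bars. Chinese wild boar has the tallest bar in both panels, 40458 CPM on the left and 5245 on the right.

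In whole liver, fewer cells of a type and less RNA per cell cannot be told apart. Hepatocyte markers, 7 of 8 matched, summed to 95104 CPM in Enshi black, 77597 in Chinese wild boar and 52667 in Large White. That order came from albumin (ALB), at 66508 CPM in Enshi black, 53648 in Chinese wild boar and 25310 in Large White. The plasma carrier TTR ran the other way, at 2543, 3497 and 4107 CPM in the same libraries, as did the urea cycle enzyme CPS1, at 1024, 1254 and 1378 CPM. Over the 6 expressed markers the median log2 fold over Large White was 0.09 in Enshi black and -0.07 in Chinese wild boar, where 2 of 6 lay above 0. Kupffer cell markers, 6 of 8 matched, summed to 320 CPM in Enshi black, 327 in Chinese wild boar and 486 in Large White. MRC1 was highest in Enshi black, at 190 CPM against 61.9 in Chinese wild boar and 126 in Large White. The other matched Kupffer markers were all lowest in Enshi black, such as CSF1R at 15.6, 55.7 and 111 CPM in the same libraries. Stellate cell and fibroblast markers, 7 of 8 matched, summed to 1066, 558 and 334 CPM. COL3A1 made up most of that sum, at 837, 383 and 232 CPM in the same libraries. PDGFRB alone broke the order, at 15.9, 18.6 and 18.0 CPM, lowest in Enshi black. Endothelial markers, 4 of 7 matched, summed to 501 CPM in Enshi black, 386 in Chinese wild boar and 740 in Large White. The high Large White sum came from STAB1, at 186, 168 and 499 CPM in the same libraries. KDR (169, 61.7 and 116) and PECAM1 (111, 108 and 95.6) were highest in Enshi black, and LYVE1 (35.1, 48.5 and 29.5) in Chinese wild boar. T and NK cell markers, 4 of 6 matched, summed to 83.3, 33.8 and 84.1 CPM. Erythroid markers, 4 of 6 matched, summed to 47.6 CPM in Enshi black, 189 in Chinese wild boar and 108 in Large White. That order came from HBB, at 36.5, 182 and 102 CPM in the same libraries. ALAS2, at 7.74, 3.44 and 2.92 CPM, and SLC4A1, at 14, 1 and 4 counts, were highest in Enshi black. HBM had 2.69, 3.69 and 2.87 CPM. B and plasma cell markers gave 9.96, 14.7 and 10.4 CPM in the same libraries, with 3 of 5 matched. That order came from POU2AF1, at 1.85, 13.5 and 8.80 CPM. CD79B, at 5.33, 0.859 and 0.972 CPM, and MS4A1, at 2.78, 0.303 and 0.614 CPM, were instead highest in Enshi black. Cholangiocyte markers gave 7.46, 7.99 and 7.47 CPM, with 3 of 5 matched. The part of these shifts in the respiratory chain values was not tested. Muscle, a tissue rich in mitochondria, gave summed marker levels of 5.14 CPM in Enshi black, 3.39 in Chinese wild boar and 3.74 in Large White over 3 of 12 markers matched, with MYL1 at 0 in all libraries.

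Among the nuclear subunits, the shift in Chinese wild boar ran through nearly the whole list at a modest size. Of 41 subunit genes, 40 had a log2 fold above 0 in Chinese wild boar over Large White, and 38 of these had an interval wholly above 1. Such intervals are narrow at high counts, and the share of all expressed genes with them was not computed. The 1 exception was NDUFA6. The median log2 fold was 0.42, beside 0.00 for the 13228 expressed genes, of which 50.1% lay above 0. It was 0.11 for the 1335 genes that averaged at least 100 CPM, of which 57.2% lay above 0. Of the 41 subunit genes, 14 averaged at least 100 CPM themselves, so that class is not matched to the list in level. The count of 40 was the same under the other 3 scalings tried.

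Enshi black over Large White was more mixed. Here 29 of 41 subunit genes (70.7%) lay above 0, against 50.6% of all expressed genes and 47.5% of those of at least 100 CPM. This comparison and the one above share the Large White library. The median log2 fold was 0.30, beside 0.01 for all expressed genes and -0.05 for those of at least 100 CPM. Intervals were wholly above 1 for 26 subunit genes and wholly below 1 for 9, again with no share of all expressed genes to set beside them. In Enshi black over Chinese wild boar, 10 of 41 subunit genes (24.4%) lay above 0. The shares were 50.4% of all expressed genes and 36.7% of those of at least 100 CPM. The subunit median was -0.18, beside 0.01 for all expressed genes and -0.16 for those of at least 100 CPM. As above, the latter class is not matched in level to the 41 subunit genes. When plain library totals were used, 17 of 41 subunit genes lay above 0. With plain totals the median of all expressed genes moved to 0.10 in both comparisons of Enshi black.

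Few members passed the 2-fold rule. In Chinese wild boar over Large White, 6 of 67 members (8.96%) passed as higher and 2 (2.99%) as lower, against a background of 2.96% higher and 3.74% lower among all expressed genes. In Enshi black over Large White, 3 passed as higher and 3 as lower (4.48% each), against a background of 4.69% and 8.39%. In Enshi black over Chinese wild boar, 1 (1.49%) passed as higher and 3 (4.48%) as lower, against 4.03% and 7.10%. The higher share in Chinese wild boar over Large White lay above this background, but among the 1335 genes of at least 100 CPM 6.22% passed as higher and 2.85% as lower. Of those 6 members, 3 are mitochondrially encoded. With a bound of 1.5-fold in place of 2-fold, 16 of 67 members (23.9%) passed as higher and 2 (2.99%) as lower in that comparison, against a background of 7.40% and 8.63%, and 17.8% and 8.01% among genes of at least 100 CPM. In Enshi black over Large White 11 (16.4%) passed as higher and 4 (5.97%) as lower, against 11.6% and 14.9%, and 15.5% and 18.6% among genes of at least 100 CPM. In Enshi black over Chinese wild boar 1 (1.49%) and 6 (8.96%) did so, against 9.85% and 12.6%. Over all 3 comparisons, 12 members passed the 2-fold rule at least once, 8 nuclear and 4 mitochondrial, and 55 never did. The share of all expressed genes that passed at least once was not computed, so these numbers have no background.

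**Figure D2:**
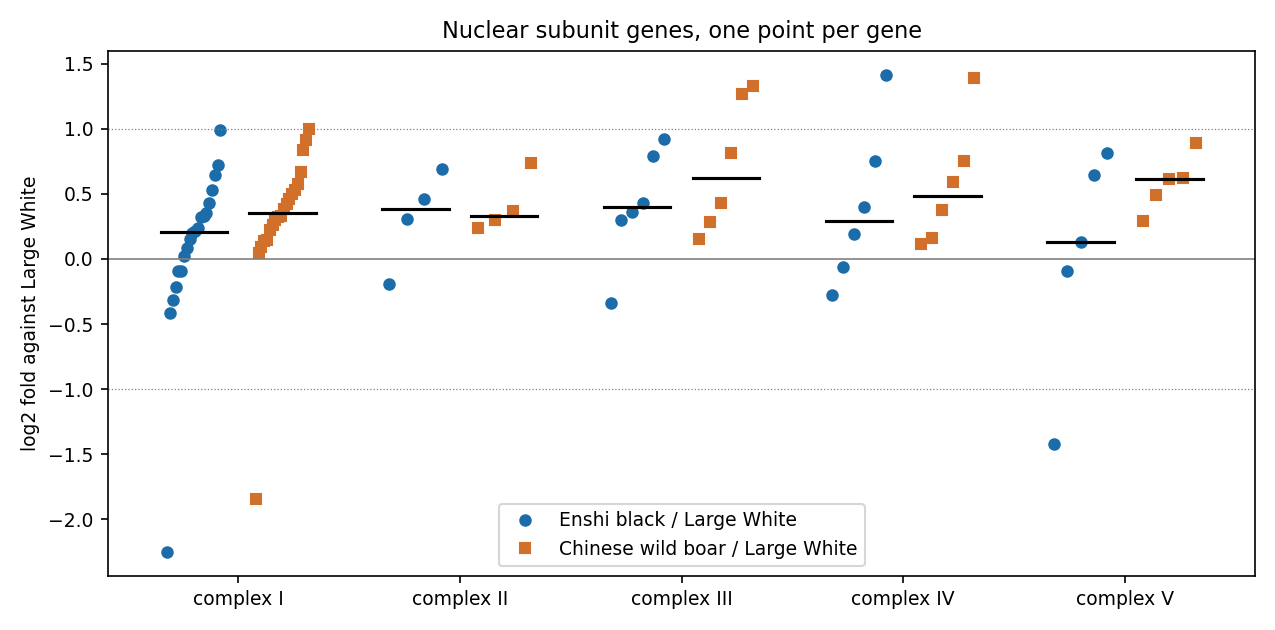
Log2 fold against Large White of each nuclear subunit gene, grouped by complex, for Enshi black (circles) and Chinese wild boar (squares), with black bars at the median and dotted lines at 2-fold. All squares but the one for NDUFA6 lie above 0, while circles lie on both sides of 0 in every complex.

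Complex I, the NADH dehydrogenase, had 20 nuclear subunits here. Their summed level was 1202 CPM in Enshi black, 1496 in Chinese wild boar and 1138 in Large White, with a median log2 fold over Large White of 0.21 in Enshi black and 0.36 in Chinese wild boar. None passed as higher, and NDUFA6 passed as lower against Large White in both. The filter used plain library totals, by which NDUFA6 reached 1 CPM only in Large White, so it entered the list through that library alone. NDUFA6, an accessory subunit of the matrix arm, had 16 counts (0.741 CPM) in Enshi black, 20 (1.01 CPM) in Chinese wild boar and 76 (3.89 CPM) in Large White. It was 5.25-fold lower (3.03 to 9.64) in Enshi black and 3.85-fold lower (2.33 to 6.65) in Chinese wild boar than in Large White, at low counts in every library, and in Chinese wild boar it no longer passed with a stricter interval.

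The highest folds over Large White among the nuclear subunits of complex I belonged to NDUFS4, an accessory subunit whose loss causes Leigh syndrome in humans. NDUFS4 stood at 20.5 CPM in Enshi black, 20.6 in Chinese wild boar and 10.3 in Large White, 1.99-fold (1.68 to 2.36) and 2.0-fold (1.69 to 2.39) higher, short of the rule. NDUFA9, at 80.6, 87.7 and 49.0 CPM in the same libraries, and NDUFS1, the iron-sulfur subunit of the core, at 77.5, 78.7 and 49.6 CPM, had a like pattern, with Large White lowest. NDUFV1, the core subunit that binds NADH, was instead lowest in Enshi black, at 99.1 CPM against 145 in Chinese wild boar and 132 in Large White. NDUFA10 had the same order as NDUFV1, at 173 CPM in Enshi black, 303 in Chinese wild boar and 215 in Large White, or 1.75-fold lower (1.68 to 1.82) in Enshi black than in Chinese wild boar.

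A further 13 complex I members were accessory subunits between 4.81 and 179 CPM, with folds over Large White from 0.859 to 1.45 in Enshi black and from 1.03 to 1.90 in Chinese wild boar. NDUFB1 had the upper value in Chinese wild boar, at 181 counts against 94 in Large White, and NDUFB7 the lower one in both. NDUFAB1, the mitochondrial acyl carrier protein, stood at 48.1 CPM in Enshi black, 45.2 in Chinese wild boar and 37.7 in Large White.

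Complex II, succinate dehydrogenase, is shared with the citric acid cycle and is wholly nuclear. Its 4 genes summed to 630 CPM in Enshi black, 713 in Chinese wild boar and 542 in Large White. The catalytic flavoprotein SDHA was lowest in Enshi black, at 221 CPM against 325 in Chinese wild boar and 252 in Large White. The iron-sulfur subunit SDHB had 199 CPM in Enshi black, 178 in Chinese wild boar and 145 in Large White. The membrane anchors SDHC and SDHD had 128 and 82.3 CPM in Enshi black, 132 and 78.2 in Chinese wild boar, and 79.2 and 66.4 in Large White. SDHC had the largest fold of the complex, 1.61 (1.51 to 1.72) in Enshi black and 1.67 (1.57 to 1.78) in Chinese wild boar over Large White, and none of the 4 passed.

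Complex III, the cytochrome bc1 complex, had a median log2 fold over Large White of 0.40 in Enshi black and 0.62 in Chinese wild boar over 6 nuclear subunits. The 5 nuclear subunits of complex V had the same median, 0.62, in Chinese wild boar. The core protein UQCRC2 stood at 42.4 CPM in Enshi black, 56.3 in Chinese wild boar and 22.4 in Large White, and was 2.52-fold higher (2.25 to 2.82) in Chinese wild boar. The small subunit UQCR11 had 18.1 CPM in Enshi black, 25.3 in Chinese wild boar and 10.4 in Large White, 2.43-fold higher (2.06 to 2.87) in Chinese wild boar, a call lost with a stricter interval. In Enshi black both were short of the rule, at 1.89-fold (1.69 to 2.13) and 1.74-fold (1.46 to 2.07). The partner core protein UQCRC1 had 186 CPM in Enshi black, 267 in Chinese wild boar and 152 in Large White. The Rieske protein UQCRFS1, which carries the iron-sulfur cluster, had 95.4, 99.8 and 74.3 CPM in the same libraries, UQCRQ 64.4, 58.1 and 47.7, and UQCR10 54.4, 76.6 and 68.7. Among these nuclear subunits UQCR10 thus had the lowest fold over Large White in both.

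Complex IV, cytochrome c oxidase, had 6 nuclear subunits, summing to 1262 CPM in Enshi black, 1410 in Chinese wild boar and 1151 in Large White. COX7A2, the isoform of subunit VIIa found in liver, was the only member lower in Large White than in both other libraries by the rule. It had 56.5 CPM in Enshi black, 55.4 in Chinese wild boar and 21.1 in Large White, 2.67-fold higher (2.39 to 3.0) in Enshi black and 2.62-fold higher (2.34 to 2.94) in Chinese wild boar, while those libraries differed by a fold of 1.02 (0.940 to 1.11). NDUFA4, once assigned to complex I and now to complex IV, had 86.3 CPM in Enshi black, 86.4 in Chinese wild boar and 51.3 in Large White. COX4I1 had 509 CPM in Enshi black, 418 in Chinese wild boar and 386 in Large White, COX5B 387, 525 and 470, COX8A 163, 257 and 171, and COX5A 59.7, 67.9 and 52.4. COX4I1 was thus highest in Enshi black, while COX5B, COX8A and COX5A were highest in Chinese wild boar.

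In complex V, the ATP synthase, 5 nuclear subunits summed to 733 CPM in Enshi black, 1043 in Chinese wild boar and 688 in Large White. ATP5ME, subunit e of the membrane part that helps join synthase dimers, was low in Enshi black alone. It had 864 counts (40.0 CPM) in Enshi black, 3255 (165 CPM) in Chinese wild boar and 2097 (107 CPM) in Large White, 2.68-fold lower (2.48 to 2.91) than in Large White and 4.11-fold lower (3.81 to 4.43) than in Chinese wild boar. ATP5F1A, the alpha subunit of the catalytic head, had 430 CPM in Enshi black, 605 in Chinese wild boar and 393 in Large White. ATP5PO, which links the catalytic head to the stator, had 83.1 CPM in Enshi black, 87.5 in Chinese wild boar and 47.2 in Large White. Of the genes for the proton-carrying c ring, ATP5MC3 had 122 CPM in Enshi black, 110 in Chinese wild boar and 78.5 in Large White, and ATP5MC1 58.2, 76.0 and 62.2. Apart from ATP5ME, no nuclear complex V gene passed in any comparison.

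As a share of the counts of matched nuclear subunits, the complexes kept similar portions. Matched were 20 of 37 listed subunits for complex I, 4 of 4 for complex II and 6 of 8 for complex III. Complex IV had 6 of 11 and complex V 5 of 15, so the portions are not those of whole complexes. Complex I took 28.0% in Enshi black, 28.5% in Chinese wild boar and 29.2% in Large White, and complex II 14.7%, 13.6% and 13.9% in the same libraries. Complex III took 10.7% (10.6 to 11.0) in Enshi black, 11.1% (10.9 to 11.3) in Chinese wild boar and 9.63% (9.43 to 9.85) in Large White. Complex IV took 29.4% in Enshi black, 26.9% in Chinese wild boar and 29.6% in Large White. Complex V took 17.1% (16.9 to 17.4) in Enshi black, 19.9% (19.6 to 20.1) in Chinese wild boar and 17.7% (17.4 to 17.9) in Large White. The Chinese wild boar portion was larger for complex V and smaller for complex IV beyond counting error.

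**Figure D3:**
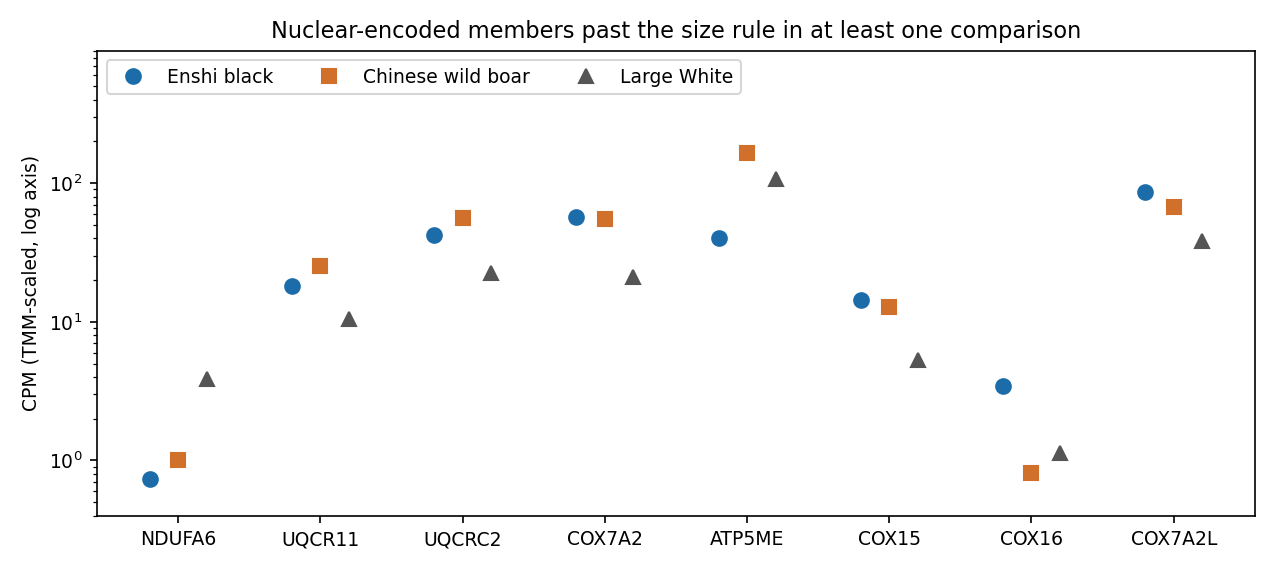
CPM on a log axis of the 8 nuclear-encoded members that passed the 2-fold rule in at least 1 comparison, 1 point per library. NDUFA6 is highest and COX7A2 lowest in Large White, and ATP5ME is lowest in Enshi black, at 40.0 CPM.

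The assembly factors and other nuclear members held 3 genes that passed. COX15, which makes haem A for complex IV, had 14.3 CPM in Enshi black, 12.8 in Chinese wild boar and 5.32 in Large White. It was 2.69-fold higher (2.15 to 3.39) in Enshi black and short of the rule at 2.41-fold (1.91 to 3.06) in Chinese wild boar. COX7A2L, a factor that joins complexes III and IV into supercomplexes, had 85.9 CPM in Enshi black, 67.0 in Chinese wild boar and 38.2 in Large White, 2.25-fold higher (2.06 to 2.45) in Enshi black than in Large White. COX16, a complex IV assembly factor, had 74 counts in Enshi black, 16 in Chinese wild boar and 22 in Large White, 4.24-fold higher (2.45 to 7.80) in Enshi black than in Chinese wild boar and 3.05-fold (1.87 to 5.15) over Large White, short of the rule. With a stricter interval COX15, COX7A2L and COX16 no longer passed.

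The other 10 expressed genes of this group passed in no comparison. NDUFAF6, a complex I assembly factor, came nearest, with 135 counts in Enshi black, 239 in Chinese wild boar and 96 in Large White, and a fold of 2.46 (1.93 to 3.15) in Chinese wild boar over Large White. NDUFAF5, another complex I assembly factor, ran the other way, with 75 counts in Enshi black, 58 in Chinese wild boar and 101 in Large White. The copper chaperone COX17 had 70.9 CPM in Enshi black, 83.7 in Chinese wild boar and 65.3 in Large White, and ATP5IF1, the inhibitor of ATP synthase reversal, had 65.0, 95.6 and 79.4. SDHAF2, which helps attach the flavin to SDHA, had 44.1 CPM in Enshi black, 70.8 in Chinese wild boar and 55.2 in Large White, the same order as SDHA. The factors NDUFAF1, NDUFAF3, NDUFAF4, NDUFAF7 and COX18 had folds over Large White from 0.905 to 1.31 in Enshi black and from 1.15 to 1.87 in Chinese wild boar.

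The mitochondrially encoded genes, though their sum followed the nuclear sum, moved unequally among themselves. ND1 and ND2, complex I subunits and the first 2 of the 13 genes in genome order, stood apart in Chinese wild boar. ND1 had 1341 CPM in Enshi black, 3601 in Chinese wild boar and 1327 in Large White. ND2 had 728 CPM in Enshi black, 3067 in Chinese wild boar and 1253 in Large White. The Chinese wild boar level was 2.71-fold (2.68 to 2.75) higher for ND1 and 2.45-fold (2.41 to 2.48) higher for ND2 than in Large White. Against Chinese wild boar, Enshi black was 2.69-fold (2.65 to 2.72) lower for ND1 and 4.21-fold (4.14 to 4.29) lower for ND2. ND2 was also 1.72-fold lower (1.69 to 1.76) in Enshi black than in Large White, whereas ND1 differed there by a fold of 1.01 (0.994 to 1.03).

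Along the mitochondrial genome, and leaving aside ATP8 and ND6, the Chinese wild boar folds over Large White were highest for the first genes and lowest toward the far end. The genes left aside break that order most, with the lowest fold for ATP8, 0.186 (0.152 to 0.226), and the highest for ND6, 2.93 (2.73 to 3.15). The order was not tested. After ND1 and ND2 came COX1 at 1.55 (1.54 to 1.56), COX2 at 1.28 (1.26 to 1.30), ATP6 at 1.25 (1.24 to 1.26) and COX3 at 1.14 (1.13 to 1.15). ND3 also broke the order with 1.505 (1.47 to 1.54), as did ND4L at 0.746, below the next genes ND4 at 0.912 and ND5 at 0.901. CYTB had 0.684. The 3 complex IV genes COX1, COX2 and COX3, which form the catalytic core, had 7908, 1698 and 7509 CPM in Enshi black, 9187, 1791 and 8321 in Chinese wild boar, and 5934, 1397 and 7280 in Large White. CYTB, the cytochrome b of complex III, was highest in Large White, at 2528 CPM in Enshi black, 2203 in Chinese wild boar and 3221 in Large White. Its direction is opposite to that of the nuclear complex III subunits, of which all 6 lay above 0 in Chinese wild boar over Large White.

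Enshi black over Large White showed no such run from one end to the other. Its folds were 1.33 (1.32 to 1.34) for COX1, 1.22 (1.20 to 1.24) for COX2, 1.26 (1.25 to 1.27) for ND4 and 1.07 (1.06 to 1.09) for ND5, while ND3 had 0.985 and CYTB 0.785. ND4 and ND5, subunits of the proton-pumping arm, had 3344 and 2228 CPM in Enshi black, 2420 and 1867 in Chinese wild boar, and 2654 and 2073 in Large White. ATP6, which forms the proton channel of ATP synthase, had 6194 CPM in Enshi black, 7051 in Chinese wild boar and 5630 in Large White, and ND3 had 495, 756 and 502.

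As shares of all mitochondrially encoded counts, which need no scaling between libraries, ND1 and ND2 together took 6.06% in Enshi black, 16.5% in Chinese wild boar and 8.22% in Large White. The block from COX1 to COX3 took 68.3% in Enshi black, 65.1% in Chinese wild boar and 64.6% in Large White. ND3 to ND5 took 17.9% in Enshi black, 12.6% in Chinese wild boar and 16.8% in Large White, and CYTB 7.41%, 5.44% and 10.3%. These blocks were drawn after the values were seen and carry no test. Scaled to the mitochondrial sum, the Chinese wild boar fold over Large White was 2.11 for ND1 and 1.90 for ND2, and ND2 no longer passed.

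**Figure D4:**
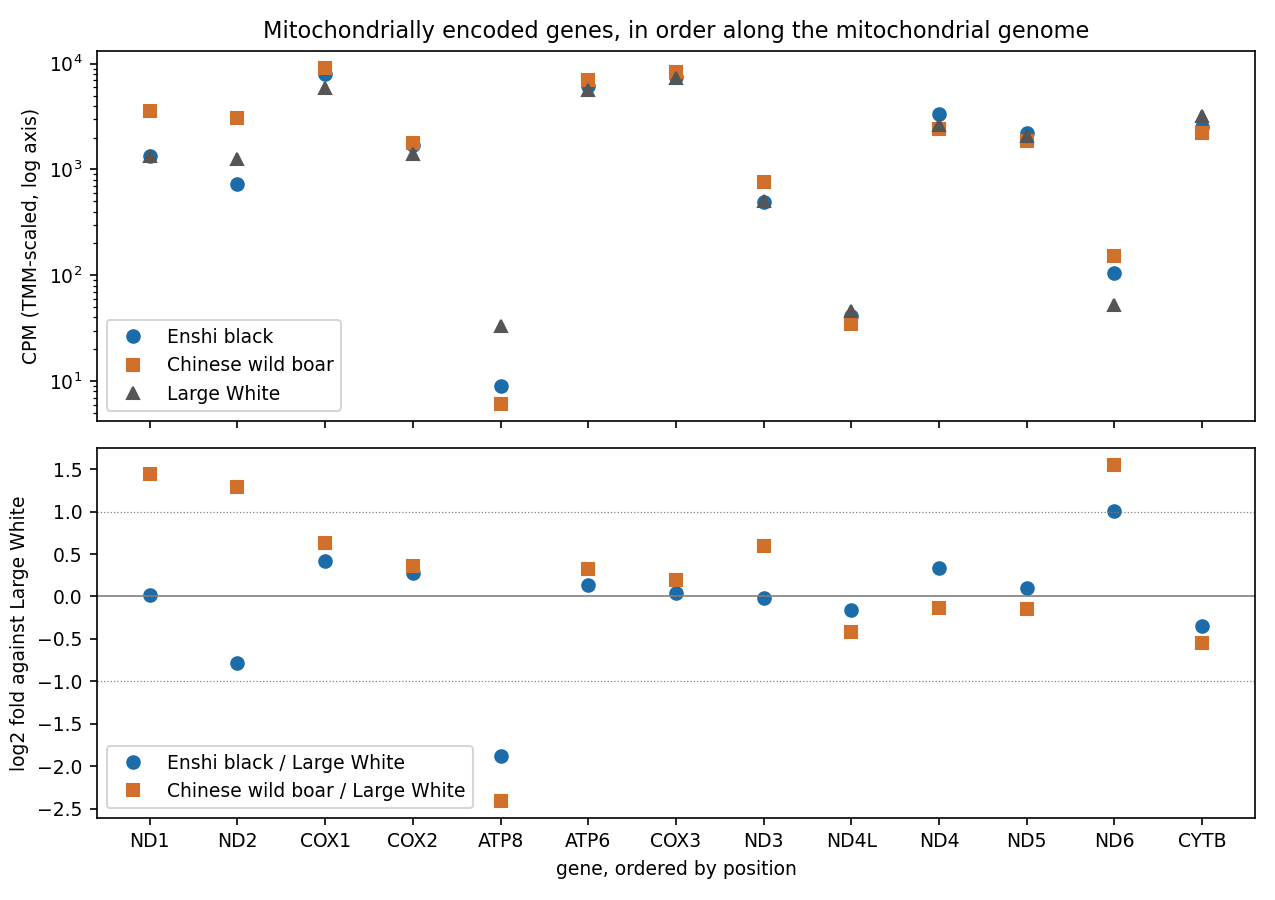
The 13 mitochondrially encoded genes in their order along the mitochondrial genome, with CPM per library on a log axis (top) and log2 fold against Large White (bottom, dotted lines at 2-fold). Chinese wild boar stands at 1.44 and 1.29 for ND1 and ND2 and at -0.55 for CYTB, and both points for ATP8 lie below -1.5.

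ND6 and ATP8 also passed, with limits from how they are counted. ND6, the complex I subunit encoded on the opposite strand from the others, had 105 CPM in Enshi black, 153 in Chinese wild boar and 52.3 in Large White. It was 2.93-fold higher (2.73 to 3.15) in Chinese wild boar and short of the rule at 2.02-fold (1.87 to 2.17) in Enshi black, where it passed with plain library totals (2.15-fold). ND6 overlaps ND5 on the other strand, and the strand setting of the counting is not given, so reads of ND6 and of antisense transcripts across it cannot be told apart.

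ATP8, a small ATP synthase subunit, had 192 counts (8.90 CPM) in Enshi black, 121 (6.12 CPM) in Chinese wild boar and 644 (33.0 CPM) in Large White. It was 3.70-fold lower (3.15 to 4.38) in Enshi black and 5.39-fold lower (4.43 to 6.60) in Chinese wild boar than in Large White. ATP8 shares sequence and a message with ATP6, which had 133670, 139511 and 110002 counts in Enshi black, Chinese wild boar and Large White. Reads that touch both genes can fall into the ambiguous class, which took 1.89% of reads in Enshi black, 2.49% in Chinese wild boar and 2.18% in Large White and does not name genes. If such reads were set aside, the ATP8 counts are only those that touched no neighbour. The same limit holds for ND4L, which overlaps ND4 and had 893 counts in Enshi black, 682 in Chinese wild boar and 903 in Large White.

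Beyond the members, a list of 74 other genes of the pathway had 44 matched IDs and 43 expressed genes. In Enshi black over Large White 3 (6.98%) passed as higher and 2 (4.65%) as lower, against the background of 4.69% and 8.39%. In Chinese wild boar over Large White 2 (4.65%) and 1 (2.33%) did so, against 2.96% and 3.74%, and in Enshi black over Chinese wild boar 1 (2.33%) and 2 (4.65%), against 4.03% and 7.10%. These counts of 1 to 3 genes lie near the background. Their median log2 fold over Large White was 0.08 in Enshi black and 0.23 in Chinese wild boar. Of 12 genes of mitochondrial RNA handling, 8 lay above 0 in Enshi black over Large White with a median of 0.43, and 11 in Chinese wild boar over Large White with a median of 0.40, where 50.1% of all expressed genes lay above 0. Of 13 further assembly genes, 8 and 12 lay above 0 in the same comparisons, with medians of 0.08 and 0.38. Of 10 genes of mitochondrial DNA and transcription, 5 and 8 did so, with medians of -0.03 and 0.32. HSD17B10, part of the enzyme that frees mitochondrial messages from their flanking tRNAs and also an enzyme of isoleucine breakdown, had 266 CPM in Enshi black, 338 in Chinese wild boar and 88.0 in Large White. It was 3.03-fold (2.87 to 3.20) and 3.84-fold (3.64 to 4.05) higher than in Large White.

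Among genes that keep and read mitochondrial DNA, the helicase TWNK had 19.4 CPM in Enshi black, 40.1 in Chinese wild boar and 14.7 in Large White, 2.73-fold higher (2.38 to 3.14) in Chinese wild boar than in Large White. The transcription factor TFB2M had 16 counts in Enshi black, 64 in Chinese wild boar and 39 in Large White, 4.36-fold lower (2.49 to 8.09) in Enshi black than in Chinese wild boar. Among assembly genes, FOXRED1, which serves complex I, was 2.38-fold lower (2.28 to 2.49) in Enshi black than in Large White, at 133 CPM against 322 in Chinese wild boar and 315 in Large White. SCO1, which delivers copper to complex IV, was 2.49-fold higher (2.25 to 2.76) in Enshi black than in Large White, at 66.4 CPM against 31.1 in Chinese wild boar and 26.7 in Large White. Cytochrome c (CYCS) had 41.2 CPM in Enshi black, 32.7 in Chinese wild boar and 39.6 in Large White.

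Of 7 nuclear regulators, 2 lay above 0 in Chinese wild boar over Large White, with a median of -0.17. PPARGC1A, a coactivator of mitochondrial gene programmes, had 19.5 CPM in Enshi black, 15.8 in Chinese wild boar and 18.8 in Large White. Its relative PPARGC1B had 1.81 CPM in Enshi black, 2.43 in Chinese wild boar and 7.37 in Large White, 4.08-fold lower (2.85 to 5.97) in Enshi black and 3.04-fold lower (2.18 to 4.30) in Chinese wild boar. The nuclear receptor ESRRG had 80 counts in Enshi black, 3 in Chinese wild boar and 7 in Large White. Its ratios were 24.4 (8.07 to 121) for Enshi black over Chinese wild boar and 10.3 (4.80 to 26.6) over Large White. ESRRG reached 1 CPM only in Enshi black, so it entered the list through that library alone. ESRRA had 103, 133 and 105 CPM in Enshi black, Chinese wild boar and Large White.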

How the data were processed

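Liver RNA was sequenced as paired-end reads, with 1 library per breed. The authors deposited raw read counts for each Ensembl gene ID. Sscrofa10.2 is the build named in the submitters' processing notes, which also list edgeR 3.16.3, HTSeq 0.6.1 and TopHat2 2.1.0. Strand setting, annotation release and how multiply aligned reads were handled are not stated there, so genes with near-identical copies, such as mitochondrial genes with nuclear copies and small subunits with pseudogenes, are uncertain. The 5 rows that name no gene were left out. Reads with no feature made up 19.0% of reads in Enshi black, 18.9% in Chinese wild boar and 22.0% in Large White.

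A symbol was found for 11804 IDs. The 13228 genes that reached 1 CPM in any library were analysed, and edgeR 4.0.16 (R 4.3.3) gave TMM factors of 1.04 for Enshi black, 0.979 for Chinese wild boar and 0.978 for Large White. One count was worth 0.0463, 0.0505 and 0.0512 CPM in those libraries. Folds carry 95% exact conditional binomial intervals (Python 3.11.15, scipy 1.17.1), which cover counting error only. No molecular identifiers are described, and the intervals make no allowance for reads copied from the same molecule. List medians use a prior count of 2. A single library per breed allows no test over animals, so none was made. The size rule was checked on simulated counts with counting error alone, so that check does not bear on variation between animals. The members and lists were chosen with earlier results of these data known. Named were all mitochondrial genes, nuclear members past the size rule, the extremes and the most abundant of each complex, and pathway genes past the rule; some further members were added after their values were seen. Alternatives were DESeq2 1.42.0 size factors, plain totals, totals without mitochondrial genes, other filters, near bounds, intervals, prior counts and summaries, and an assumed variation between animals. Coordinates and sequences are not reported, since no genome of that build was used here. The order of mitochondrial genes came from the RefSeq annotation of another build, Sscrofa11.1. Some members are given only within ranges, and the values of 1 further member are counted in the sums and lists but not otherwise reported.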

Additional observations from a re-analysis of the deposited data

How the results depend on the processing

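No paired analysis was possible because there is 1 library per breed. Numbers of members past the size rule, given as higher in Enshi black over Large White, lower there, then higher and lower in Chinese wild boar over Large White and in Enshi black over Chinese wild boar, were 3, 3, 6, 2, 1 and 3. A near bound of 1.5-fold gave 11, 4, 16, 2, 1 and 6, and 4-fold gave 0, 0, 0, 1, 0 and 1. A stricter interval gave 1, 3, 5, 1, 0 and 3, losing COX15, COX7A2L, UQCR11, NDUFA6 in Chinese wild boar, and COX16, and a filter of 10 CPM gave 3, 2, 6, 1, 0 and 3. Totals without mitochondrial genes gave 5 in the first, adding COX16 and ND6. If animals were assumed to vary with a CV of 0.2, the numbers were 0, 2, 0, 1, 0 and 2, and with a CV of 0.4 each was 0, so no call held under that assumption. DESeq2 size factors, plain totals and no filter kept each number within 1.5 times, where no filter added COX10 as lower in Enshi black than in Chinese wild boar and plain totals added ND6. The counts above 0 under other scalings, and folds scaled to the mitochondrial sum, were chosen after seeing the data.

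Nuclear subunits above 0 in Enshi black over Chinese wild boar numbered 17 of 41 under plain totals, with or without mitochondrial genes, against 10. The mitochondrial to nuclear ratio in Enshi black, Chinese wild boar and Large White was 7.96, 7.71 and 8.06 with subunits only. It was 5.29, 5.46 and 5.48 without ATP8, ATP6, ND4L and ND4, and 30.6, 31.8 and 28.5 as a ratio of medians. Between libraries it was compared as Enshi black over Large White, Chinese wild boar over Large White and Enshi black over Chinese wild boar. These values were 0.966, 0.997 and 0.969 without those genes and 1.07, 1.11 and 0.964 as a ratio of medians. Each thus lay on either side of 1 by setting. Of 192 list medians under other settings, 188 kept their sign. The exceptions, all in Enshi black, were complex IV over Chinese wild boar (0.001 with plain totals), complex II over Chinese wild boar (-0.09 as a mean and -0.18 from summed counts, against 0.01) and mitochondrial genes over Large White (-0.07 as a mean, against 0.04). The cause was not tested. A correction for gene length was void, since 73.1% of expressed members had a span, under the 80% set.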
